A study of Rattus norvegicus with 6 samples.

Results

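The genes described here belong to families that hold the machinery that loads, docks and fuses transmitter vesicles, and were read in rat dorsal root ganglia. They were chosen by gene name, by a rule that uses no measured value but was written with earlier results of these data known. The names are those of the synaptotagmins, syntaxins, syntaxin-binding proteins, VAMPs, SNAP proteins, synapsins, SV2 proteins, complexins, Rab3 proteins and vesicular glutamate transporters. Some members of these families, such as Stx12, Stx18, Snap29 and Snap47, serve other membranes of the cell. All members are called release genes here by name only. The name rule matched 65 of the 23800 features of the table, in 10 families. Of these, 56 reached 1 FPKM (fragments per kilobase of transcript, scaled to the library's total) in at least 3 of the 6 samples and were tested, as were 13710 features in all. Snap23 and Sv2b were not matched under those names and Snap23 was not analysed here. A feature named AC126641, which the table describes as synaptic vesicle glycoprotein 2b, lay outside the rule at 35.7 to 48.7 FPKM.

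All animals were Sprague Dawley rats, and the left tibia of each was injected, into its marrow cavity, with MRMT-1 (a breast carcinoma line from rat) in 10 µL of medium. The bone cancer pain group (BCP, replicates 1, 2 and 3) was given living cells, and the sham group (sBCP, replicates 1, 3 and 4) boiled cells. The L3 to L5 ganglia of the injected side were collected on day 17, and their polyadenylated RNA was sequenced. The labels give no age, and do not say how many animals each sample held or that each sample came from its own animal, so the p-values cover only sample-to-sample spread, and part of that spread may be technical. The ganglia hold neuron cell bodies, so a transcript measured here is made in the ganglion, whereas the protein of the synaptic members acts mostly at central and peripheral terminals.

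As background, a vesicle fuses when a vesicle SNARE (a VAMP) zips together with the plasma membrane SNAREs syntaxin and Snap25. Complexin binds the assembled complex, and a synaptotagmin triggers fusion when it binds calcium. Rab3 and its effectors tether vesicles, synapsins hold the reserve pool together, and the SLC17 transporters fill vesicles with glutamate, the transmitter of primary sensory neurons.

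The 3 defining markers of the machinery in sensory neurons were detected in each of the 6 libraries. Snap25, the neuronal plasma membrane SNARE, read 367, 356 and 397 FPKM in the BCP libraries and 350.2, 409 and 356 in the sham ones. Syt1, the fast calcium sensor of central synapses, read 49.0, 50.5 and 65.9 FPKM in the BCP libraries and 54.4, 55.8 and 58.2 in the sham ones. Slc17a6, the vesicular glutamate transporter VGLUT2, read 10.7, 15.04 and 14.7 FPKM in the BCP libraries and 15.1, 14.6 and 12.1 in the sham ones. The groups overlapped for all 3 markers. All 15 pan-neuronal genes of a marker list (such as Tubb3, Uchl1 and Prph) passed the filter as well.

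Release genes spanned a wide range of levels in the ganglion, and a small set made up most of the summed signal. Summed over the 65 members, the libraries held 3793 to 4307 FPKM, and the 7 highest genes made up 63.6% of the mean sum. They included Cplx1, Vamp1, Rab3a, Snap25, Syt11 and Vamp2, and 10 members had a mean over 100 FPKM. Another 34 lay between 10 and 100 FPKM, and 12 tested members lay below 10. The 44 members of at least 10 FPKM in the mean had a median of 33.4 FPKM. Orders between genes given below are orders of FPKM. A bias particular to a gene would recur in every library, so agreement across libraries does not test an order of transcript abundance.

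**Figure D1:**
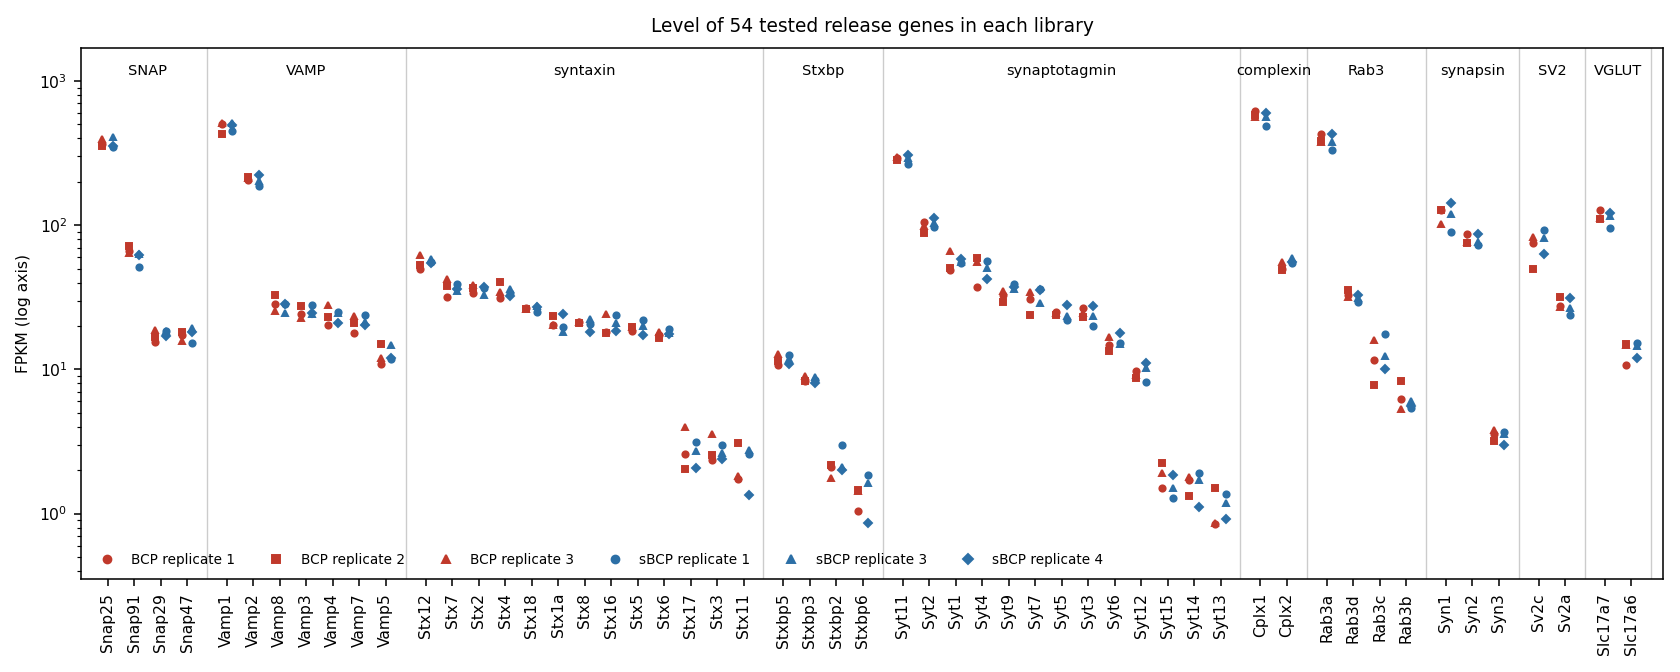
FPKM on a log axis for 54 of the tested release genes, by family and in order of mean level within it, with each point a library (BCP in red to the left, sBCP in blue to the right). Levels differ widely within families, and the BCP and sBCP ranges overlap for 52 of the 54 genes.

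Among the vesicle SNAREs, Vamp1 was the leading member and made up 60.3% of the family. Vamp1 read 500.3, 428 and 511 FPKM in the BCP libraries and 453, 509 and 494 in the sham ones. Vamp2, its close relative that dominates in forebrain, read 206, 216 and 213 FPKM in the BCP libraries and 186, 202 and 221 in the sham ones. Vamp1 was higher than Vamp2 in 6 of 6 libraries, and their ranges did not overlap. Vamp8, Vamp3, Vamp4 and Vamp7, which serve secretion and endosomal traffic in most cells, followed with means of 28.0, 25.2, 23.7 and 21.3 FPKM, and neighbours in that order overlapped. Vamp5, known from muscle and endothelium, was lowest at 10.96 to 15.1 FPKM.

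Of the syntaxins, Stx1a, a plasma membrane member, read 20.4, 23.4 and 20.2 FPKM in the BCP libraries and 19.6, 18.2 and 24.3 in the sham ones. Stx12, an endosomal syntaxin, was above Stx1a in 6 of 6 libraries, with 49.7, 53.0 and 62.0 FPKM in the BCP libraries and 55.9, 58.3 and 54.3 in the sham ones. Stx7, Stx2, Stx4, Stx18, Stx8, Stx16, Stx5 and Stx6 had means between 17.8 and 37.1 FPKM. Stx7 can share reads with LOC100910446, a syntaxin-7-like feature at 30.5 to 33.7 FPKM, so its value is uncertain. Stx17, Stx3 and Stx11 were lowest, with means of 2.77, 2.75 and 2.22 FPKM, and neighbours among these 3 overlapped.

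In the SNAP set, Snap91 is named for its size and encodes AP180, a clathrin adaptor of vesicle retrieval, and is no SNARE. Its 66.0, 72.1 and 64.4 FPKM in BCP lay above its 51.6, 63.5 and 62.2 FPKM in sBCP. Snap29 and Snap47, SNAREs of intracellular membranes, had means of 17.4 FPKM each, and neither was above the other beyond their spread. Stxbp5 (tomosyn), a brake on SNARE assembly, had a mean of 11.7 FPKM, and Stxbp3, Stxbp2 and Stxbp6 had means of 8.48, 2.19 and 1.38 FPKM.

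The synaptotagmins divide into calcium sensors and members that bind no calcium. Syt11, of the second kind, was the highest, with 291, 281 and 299 FPKM in the BCP libraries and 268, 293 and 307 in the sham ones, 45.2% of the family. Of the fast sensors, Syt2 was above Syt1 in 6 of 6 libraries, with 105, 87.6 and 98.6 FPKM in the BCP libraries and 97.0, 103 and 112 in the sham ones. Syt1 and Syt4 overlapped, with Syt4 between 37.1 and 59.0 FPKM. Syt9, another fast sensor, read 32.6, 29.1 and 35.1 FPKM in the BCP libraries and 39.1, 36.0 and 37.4 in the sham ones, so every BCP value was under every sBCP value. Syt7, the slow high-affinity sensor, ranged from 23.7 to 36.1 FPKM. Syt5, Syt3, Syt6 and Syt12 had means of 24.5, 24.2, 15.5 and 9.48 FPKM. Syt15, Syt14 and Syt13 had means of 1.72, 1.59 and 1.12 FPKM.

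Cplx1 was the highest gene of all members. It read 618, 581 and 565 FPKM in the BCP libraries and 490.1, 561 and 604 in the sham ones. Cplx2 read 49.5, 48.6 and 55.5 FPKM in the BCP libraries and 55.0, 58.9 and 55.1 in the sham ones, so that Cplx1 was 8.91 to 12.5 times higher within a library. The retinal complexins Cplx3 and Cplx4 stayed at or under 0.0772 FPKM. Of the Rab3 proteins, Rab3a led, with 427, 381 and 376 FPKM in the BCP libraries and 334, 376 and 426 in the sham ones. Rab3d had a mean of 32.2 FPKM, Rab3c of 12.6 and Rab3b of 6.15, and only the last 2 overlapped. Rab3b read 6.23, 8.33 and 5.29 FPKM in the BCP libraries and 5.40, 6.02 and 5.61 in the sham ones.

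Of the synapsins, Syn1 read 127, 128 and 103 FPKM in the BCP libraries and 89.6, 119 and 142 in the sham ones. Syn2 read 86.4, 75.6 and 76.1 FPKM in the BCP libraries and 72.6, 76.5 and 86.8 in the sham ones, and Syn3 averaged 3.45 FPKM. The span of Syn1 overlaps those of Timp1, Araf and LOC102555453 on the other strand, the last at 66.9 to 144 FPKM. Whether counting used strand is not given in the sources used here, and whether exons overlap was not examined. Reads of these features could thus have been counted for Syn1, or the reverse. The same holds of Syn3 with Timp3, at 107 to 131 FPKM, and of Syn2 with Timp4, at 3.44 to 7.21 FPKM. Of the SV2 proteins, which also serve as entry receptors of botulinum toxin, the rule matched Sv2c and Sv2a, and Sv2c was the higher. AC126641, described as synaptic vesicle glycoprotein 2b, lay outside the rule and had a mean of 41.5 FPKM, against 28.1 for Sv2a. Sv2c read 75.2, 49.7 and 83.3 FPKM in the BCP libraries and 93.2, 81.0 and 63.0 in the sham ones. Sv2a read 27.5, 31.8 and 27.2 FPKM in the BCP libraries and 23.9, 26.8 and 31.0 in the sham ones.

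Of the vesicular glutamate transporters, Slc17a7 (VGLUT1), known from large myelinated sensory neurons, was the higher. Slc17a7 read 128, 109.8 and 112 FPKM in the BCP libraries and 95.9, 116 and 121 in the sham ones, 8.31 times the mean of Slc17a6. The third, Slc17a8 (VGLUT3), known from low-threshold mechanoreceptors, peaked at 0.924 FPKM and was below the filter. The other members below the filter were Stxbp4 (highest value 1.04 FPKM), Syt16 (0.795), Stxbp5l (0.710), Syt17 (0.289), Syt8 (0.213), Syt10 (0.103), Cplx3 (0.0772) and Cplx4 (0.0577). Of these 9 members, Syt8, Syt10, Cplx3 and Cplx4 were listed at exactly 0 in at least 1 library. Over the 55 neighbouring pairs in the within-family orders, 28 had ranges that did not overlap across the 6 libraries and 27 had ranges that did.

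The comparison of BCP with sBCP asked whether the members differ in these ganglia after living tumour cells. No member passed. By limma on log2(FPKM + 1), with Benjamini-Hochberg adjustment over all 13710 tested features, 0 of 56 members were called at an adjusted p under 0.05, where 0.182% of all tested features were. The smallest adjusted p of a member was 1.00. At an unadjusted p under 0.05 there was 1 member, Syt9, 1.79% of members against 1.98% of all tested features. Groups did not overlap for 2 members, 3.57% against 5.4% of all tested features. Snap91 was the higher in BCP (2.34% of all tested features were higher without overlap) and Syt9 the lower (3.06% were lower without overlap). Both shares lie near or below the background. Of the members, 0 are marked significant in the authors' deposited table, where 0.627% of the tested features are, and the smallest p-value of a tested member there is 0.201, for Snap91.

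Differences were small. The median over the 56 members was 0.00 on the log2 scale, beside -0.01 over all tested features, with 31 members above 0 and 25 below. That is 55.4% above 0, where 45.5% of all tested features were above 0. Single differences ran from -0.21 for Syt9 to 0.19 for Snap91. Mean Syt9 was 32.3 ± 2.98 FPKM for BCP against 37.5 ± 1.57 for sBCP (SD, n = 3 per group), and the 95% interval on the log2 scale ran from -0.41 to -0.01 (limma unadjusted p = 0.0410, adjusted p = 1.00). Snap91 averaged 67.5 ± 4.07 against 59.1 ± 6.54 FPKM, with an interval from -0.04 to 0.42 (unadjusted p = 0.0868 and adjusted p = 1.00 by limma). Both were picked out by their values among 56 members.

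**Figure D2:**
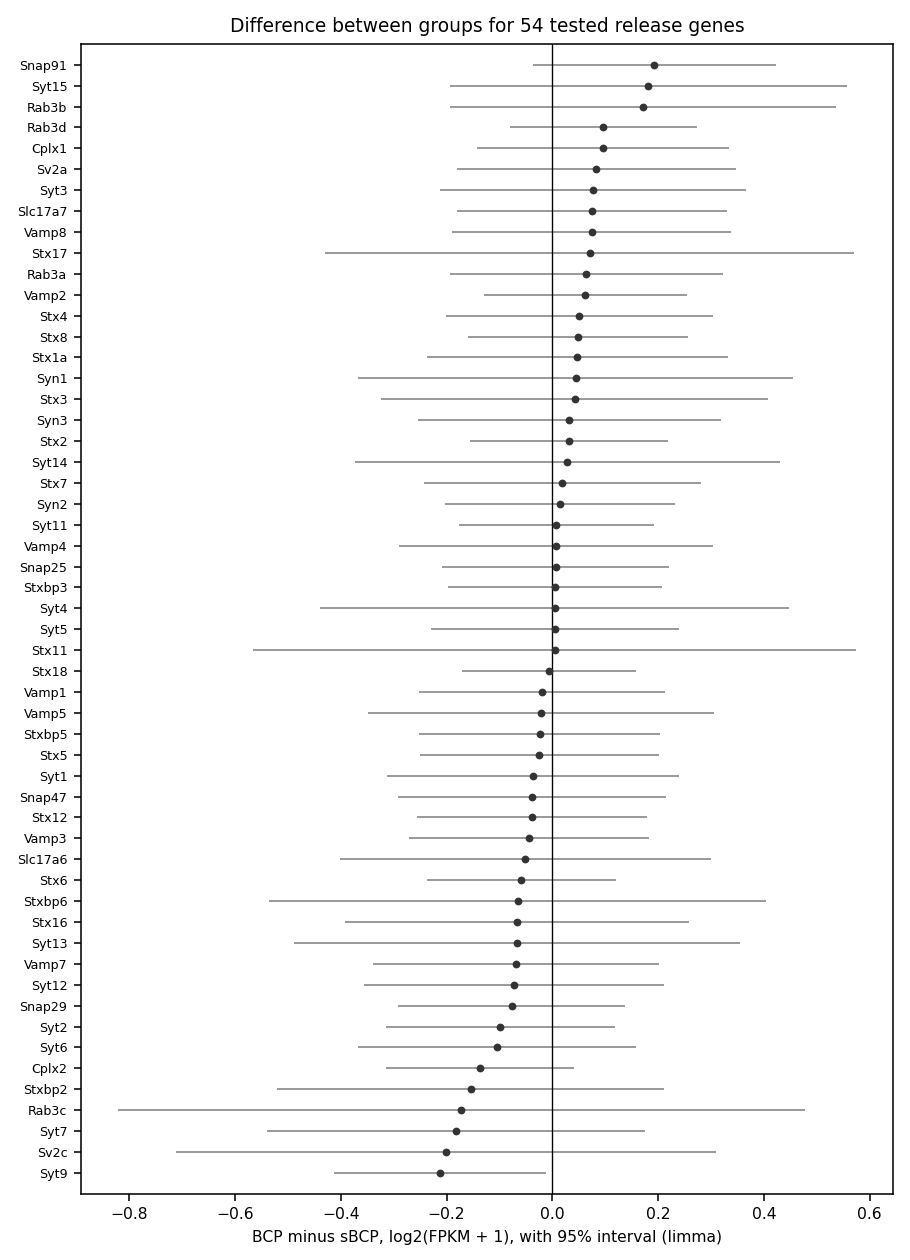
BCP minus sBCP difference on the log2(FPKM + 1) scale for 54 of the tested members, with its 95% interval from limma, in order of the difference. Differences run from -0.21 (Syt9) to 0.19 (Snap91), and every interval drawn but that of Syt9 holds 0.

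A p that misses the threshold does not show that a gene did not differ, so the intervals are given as bounds. For 47 of the 56 members, 83.9%, the 95% interval lay within 0.5 either side of 0 on the log2 scale, which is 1.41-fold on log2(FPKM + 1). The same held for 71.2% of all tested features. Among genes of at least 10 FPKM it held for 41 of 44 members, 93.2%, and for 87.7% of all. Among the fusion SNAREs the intervals ran from -0.21 to 0.22 for Snap25, from -0.13 to 0.26 for Vamp2, from -0.25 to 0.21 for Vamp1 and from -0.24 to 0.33 for Stx1a. For Cplx1 the interval ran from -0.14 to 0.33. The markers Syt1 and Slc17a6 had intervals from -0.31 to 0.24 and from -0.40 to 0.30. The 9 members with wider bounds were Sv2c, Syt7, Rab3c, Rab3b, Stx17, Stx11, Stxbp2, Syt15 and Stxbp6. The widest was that of Rab3c, from -0.82 to 0.48.

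Ratios between paralogs cancel library scaling and were compared for 6 pairs. On the log2 scale, Cplx1 to Cplx2 was 3.52 ± 0.155 for BCP against 3.29 ± 0.152 for sBCP (SD, n = 3 per group), with an exact two-sided permutation p of 0.2 and an adjusted p of 0.8 over the 6 ratios. The smallest p that 3 samples against 3 allow is 0.1, so no ratio could pass. For Vamp2 to Vamp1 the values were -1.18 ± 0.166 and -1.26 ± 0.0901. Groups overlapped for each of the 6 pairs, and for 5 of them the sign of the difference turned when 1 library was left out. Syt1 to Syt2 was at -0.83 ± 0.264 in BCP and -0.89 ± 0.0532 in sBCP, and Slc17a6 to Slc17a7 at -3.13 ± 0.393 and -3.00 ± 0.329. The ratio of Sv2a to Sv2c varied most, from -1.96 in sBCP replicate 1 to -0.64 in BCP replicate 2. Rab3a to Rab3b was at 5.92 ± 0.352 and 6.05 ± 0.169.

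**Figure D3:**
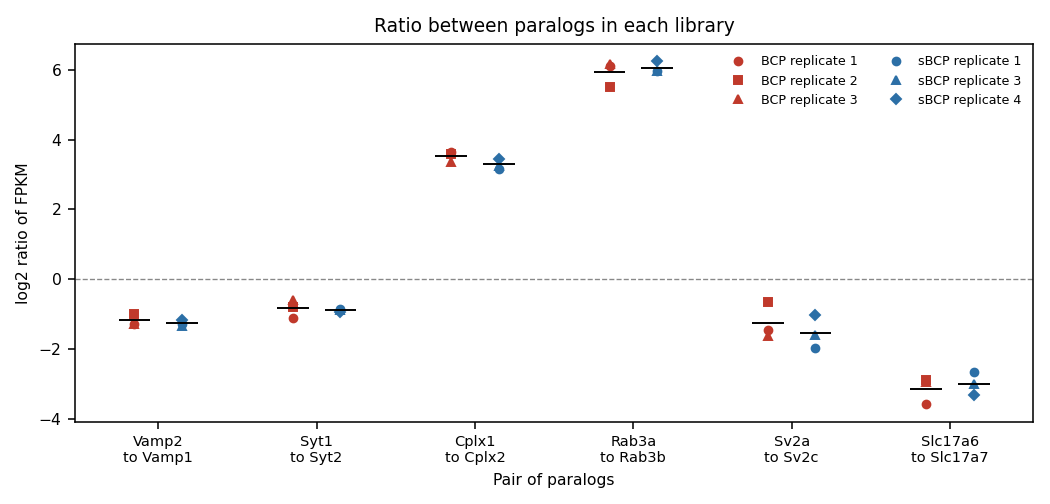
The log2 ratio of FPKM between 6 pairs of paralogs, with each point a library (BCP red, sBCP blue), black bars the group means and the dashed line equal levels. The leading paralog is the same in all 6 libraries for each pair, and the groups overlap for each pair.

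The median SD of log2(FPKM + 1) over the 6 libraries was 0.142 for members and 0.145 for all tested features. Among genes with a mean of at least 10 FPKM it was 0.136 for the 44 members and 0.115 for all 6563 features. The most variable member was Rab3c, a vesicle GTPase, with 11.7, 7.79 and 16.1 FPKM in the BCP libraries and 17.6, 12.3 and 10.0 in the sham ones (SD of 0.398 on the log2 scale). Sv2c followed the same order at its ends, with its lowest value in BCP replicate 2 and its highest in sBCP replicate 1. The steadiest were Stx18, a syntaxin of the endoplasmic reticulum, with an SD of 0.0505, and Stxbp3, a syntaxin-binding protein of most cells, with 0.0513.

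The libraries differed along a line that was not the study's comparison. The first principal component of the 56 members held 49.2% of their variance and placed the BCP libraries at -0.52, -0.83 and 0.74 and the sBCP libraries at 1.25, 0.20 and -0.84, so that the groups overlapped. In sBCP replicate 1, 19 of the 56 members had their lowest value, against 3 to 13 in the other libraries. They included Cplx1, Rab3a, Snap25, Syt11, Vamp2, Syn1, Slc17a7, Syn2 and Sv2a. In the same library 12 members had their highest value, against 4 to 13 in the other libraries, among them Rab3c, Sv2c, Syt7, Syt9, Slc17a6 and Stxbp2.

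**Figure D4:**
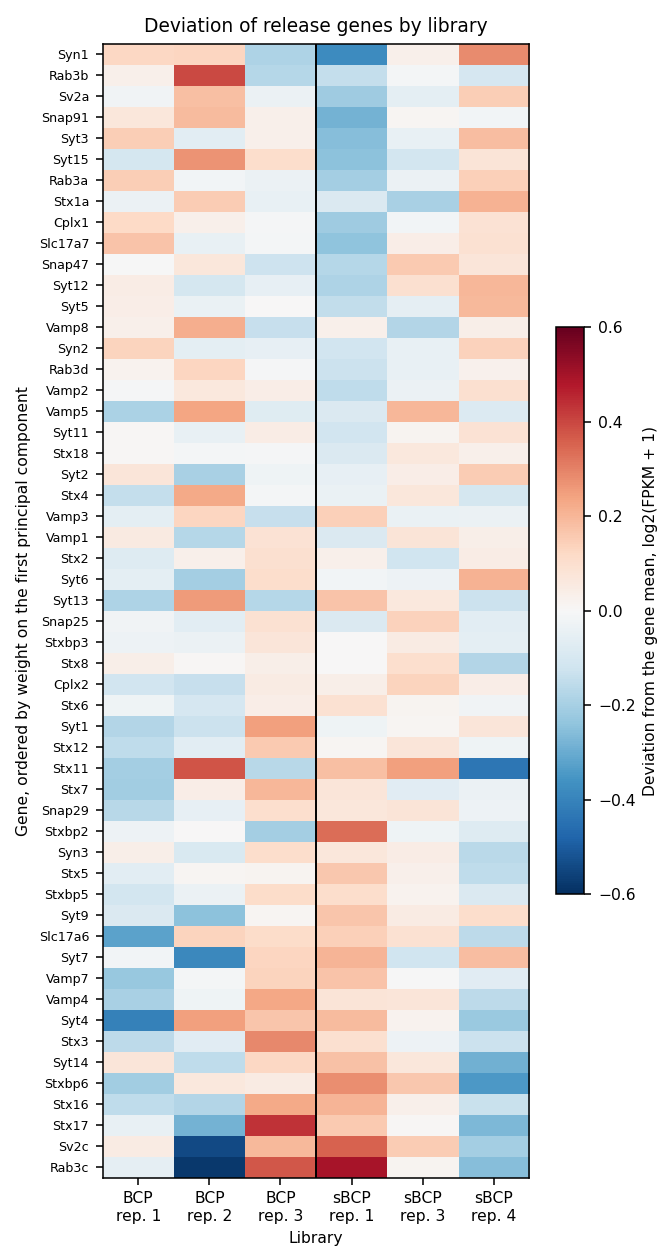
Deviation of 54 tested members from their own means over the 6 libraries, on the log2(FPKM + 1) scale (red above, blue below), with genes in order of their weight on the first principal component and the black line between BCP and sBCP. Genes from Syn1 to Vamp2 are mostly blue in sBCP replicate 1, and Rab3c and Sv2c are red there and blue in BCP replicate 2.

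The summed markers of neurons were lowest in the same library. The summed FPKM of the 65 members was lowest in sBCP replicate 1, at 3793, and lay between 4039 and 4307 in the others. The sum of 15 pan-neuronal genes was also lowest there, at 15781 against 17571 to 20002, and that of 11 myelin genes of Schwann cells highest, at 10796 against 6800 to 9522. Among the other libraries the myelin sums did not follow the order of the first component. The fibroblast list (632 against 314 to 569 FPKM) and the satellite glia list (427 against 384 to 405) were also highest in sBCP replicate 1. So was the skeletal muscle list, at 1411, but it split by group. It came to 950 and 987 in sBCP replicates 3 and 4 and to 330 to 441 in BCP. All 9 fibroblast genes had a difference below 0, with a median of -0.29. Of these, 0 were called by limma, and 2 had an unadjusted p under 0.05, where 1.98% of all tested features did. Groups did not overlap for 2 of the 9, both lower in BCP, where 3.06% of all tested features were lower without overlap. The authors' deposited table marks 1 of the 9 as significant, where it marks 0.627% of the tested features. As a share of the pan-neuronal sum, the members came to between 21.4% and 23.9% in BCP and between 21.5% and 24.0% in sBCP, and sBCP replicate 1 was the highest by this measure. The macrophage list summed to 615 FPKM in BCP replicate 2 and to 96.7 to 256 in the others, and 0 of its 12 genes were called. All 11 myelin genes had a mean difference below 0, with a median of -0.17, and 0 were called. In a bulk sample, fewer neurons and less RNA per neuron cannot be told apart, and the part of neuron share in the single values was not tested. Without sBCP replicate 1 the median difference of the members was 0.00 on the log2 scale, and 0 members were called. With libraries scaled to the pan-neuronal sum, a scaling chosen after seeing the data, 15 members were above 0 and 41 below (31 and 25 as deposited), and 0 were called. That scaling moved the median of all tested features to -0.06, and that of the members to -0.05.

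**Figure D5:**
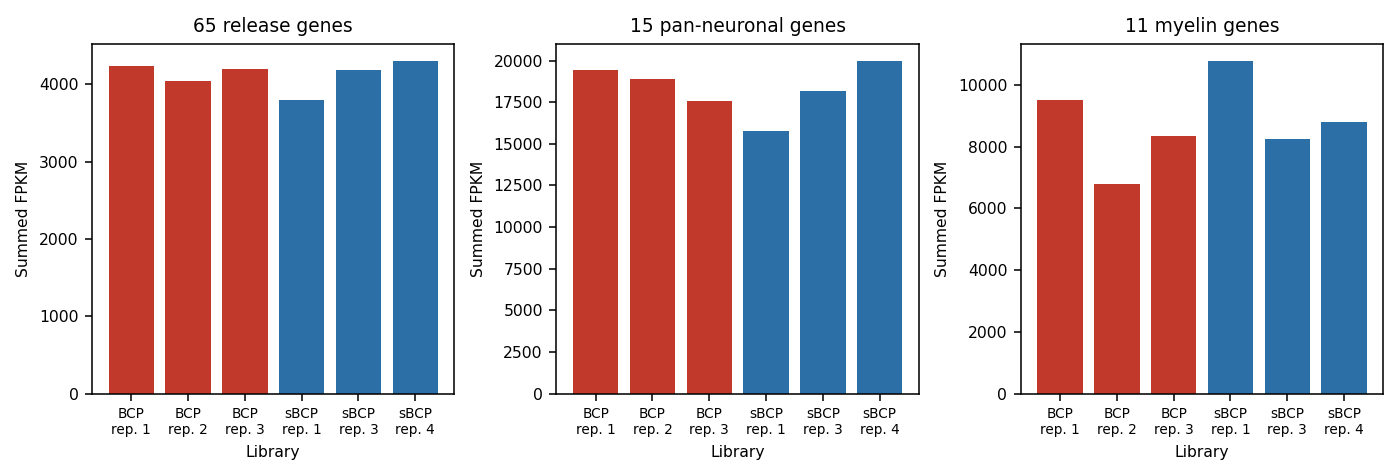
Summed FPKM in each library of the 65 release genes, 15 pan-neuronal genes and 11 myelin genes of Schwann cells (bars from 0, BCP red, sBCP blue). In sBCP replicate 1 the release genes (3793) and the pan-neuronal genes (15781) are lowest and the myelin genes (10796) highest.

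As examples of members lowest and of members highest in sBCP replicate 1, some promoters are shown as the 250 bases before the start site (RefSeq, build GRCr8). Capitals mark a GC box (GGGCGG) or a full cyclic AMP response element (CRE, TGACGTCA), each searched on both strands.
Cplx1, chr14:1328823-1329072, plus strand: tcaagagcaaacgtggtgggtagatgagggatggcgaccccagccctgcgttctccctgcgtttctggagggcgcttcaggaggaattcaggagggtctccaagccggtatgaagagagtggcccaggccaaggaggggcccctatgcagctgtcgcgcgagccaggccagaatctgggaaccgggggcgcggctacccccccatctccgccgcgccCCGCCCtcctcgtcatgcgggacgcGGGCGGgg
Rab3a, chr16:18722274-18722523, minus strand: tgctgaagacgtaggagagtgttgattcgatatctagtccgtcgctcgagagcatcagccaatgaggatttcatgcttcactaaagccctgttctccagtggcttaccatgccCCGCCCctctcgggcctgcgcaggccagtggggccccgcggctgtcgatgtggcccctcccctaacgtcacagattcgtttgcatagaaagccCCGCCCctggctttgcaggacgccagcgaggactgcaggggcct
Syn1, chrX:3725495-3725744, plus strand: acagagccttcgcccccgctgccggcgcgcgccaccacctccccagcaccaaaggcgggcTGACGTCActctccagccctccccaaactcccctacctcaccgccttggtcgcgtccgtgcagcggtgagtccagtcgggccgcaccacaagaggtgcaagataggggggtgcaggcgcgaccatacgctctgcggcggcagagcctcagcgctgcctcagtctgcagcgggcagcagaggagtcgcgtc
Rab3c, chr2:43575944-43576193, minus strand: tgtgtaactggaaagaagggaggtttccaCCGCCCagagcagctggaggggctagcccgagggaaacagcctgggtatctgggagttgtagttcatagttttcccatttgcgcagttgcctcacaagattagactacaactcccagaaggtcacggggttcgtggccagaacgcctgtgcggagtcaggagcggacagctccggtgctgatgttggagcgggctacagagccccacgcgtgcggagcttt
Sv2c, chr2:29163169-29163418, minus strand: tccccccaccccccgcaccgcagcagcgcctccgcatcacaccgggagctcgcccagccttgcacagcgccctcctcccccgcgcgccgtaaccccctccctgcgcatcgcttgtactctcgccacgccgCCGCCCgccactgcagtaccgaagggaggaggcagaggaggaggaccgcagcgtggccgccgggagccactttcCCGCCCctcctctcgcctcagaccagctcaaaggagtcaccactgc
Vamp1, chr4:159698644-159698893, plus strand: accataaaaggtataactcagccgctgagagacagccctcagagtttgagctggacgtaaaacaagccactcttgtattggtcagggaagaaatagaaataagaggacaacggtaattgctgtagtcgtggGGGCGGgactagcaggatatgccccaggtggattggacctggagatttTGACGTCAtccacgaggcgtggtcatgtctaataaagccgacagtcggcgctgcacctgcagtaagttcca
Cplx1, Rab3a and Syn1 were among the members lowest in sBCP replicate 1, Rab3c and Sv2c among those highest there, and Vamp1 is the leading vesicle SNARE. Of 52 members with a promoter in the table, 2 held the CRE, Syn1 and Vamp1 (3.85%, against 2.02% of 19005 protein-coding promoters). A GC box was found in 32 of the 52 (61.5% against 40.3%), and TATAAA in 2, Stxbp3 and Stxbp5l (3.85% against 12.3%). The promoters of members also held more G and C, with a median of 60.8% against 54.8%. The comparison set was not limited to genes detected in these ganglia, whereas most members passed the filter. The part of that in these contrasts was not tested. Of the printed promoters, that of Syn1 holds no GC box and the others hold at least 1. The printed ones are not all members of either group. Of the others named above, Sv2a (lowest in sBCP replicate 1) and Slc17a6 and Stxbp2 (highest there) held no GC box. Syt11, Vamp2, Slc17a7 and Syn2 (lowest there) and Syt9 (highest there) held at least 1. No contrast between the groups is thus drawn. These matches are letters in a window, not binding sites.

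The other genes of the release cycle were read from lists. In the active zone list, which docks and primes vesicles, 0 of 17 tested genes were called, with a median log2 difference of -0.02. Its genes with the smallest p were Rims3 (15.1 ± 3.24 FPKM for BCP against 18.1 ± 0.529 for sBCP) and the priming factor Unc13a (12.2 ± 1.10 against 13.7 ± 0.251 FPKM). Groups did not overlap for 2 genes of this list, where 5.4% of all tested features did not overlap. Unc13a was the lower in BCP (3.06% of all tested features were lower without overlap) and Rimbp2 the higher (2.34% were higher without overlap). Rimbp2 was named after its values were seen. SNARE recycling, with the disassembly ATPase Nsf, had 0 of 5 called and a median of -0.04. There the smallest p were those of the chaperone Dnajc5 (32.4 ± 4.16 against 37.3 ± 2.14 FPKM) and Napb (54.9 ± 13.5 against 62.1 ± 12.6 FPKM), an adaptor of Nsf. Vesicle endocytosis had 0 of 22 called and a median of 0.02, with Synj1, a lipid phosphatase that uncoats vesicles, at 34.4 ± 3.83 against 40.8 ± 3.62 FPKM. The clathrin adaptor subunit Ap2s1 was at 155 ± 5.97 against 140 ± 10.9 FPKM (SD, n = 3 each throughout).

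Calcium sensors and Rab effectors had 0 of 7 tested features called (6 named genes, with Sytl2 listed under 2 identifiers) and a median of 0.02, with Rab27a at 7.25 ± 0.339 against 8.27 ± 0.731 FPKM and Sytl3 at 11.5 ± 0.837 against 10.1 ± 2.16. Dense-core vesicle genes, which carry neuropeptides, had 0 of 12 called and a median of 0.00. Of these, the granin Chgb averaged 142 ± 7.49 FPKM for BCP against 128 ± 11.5 for sBCP, and Pam, which amidates peptides, averaged 40.6 ± 1.03 against 43.6 ± 2.57. Other fusion SNAREs had 0 of 10 called and a median of -0.06, with the Golgi SNAREs Ykt6 (53.5 ± 2.31 against 58.1 ± 0.562 FPKM) and Vti1a (6.95 ± 0.346 against 7.73 ± 0.209 FPKM), each without overlap between groups, where 3.06% of all tested features were lower without overlap. Over all tested features limma called 0.0146% higher and 0.168% lower. At an unadjusted p under 0.05, each of these 6 lists held 0 genes.

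In the vesicle membrane list 0 of 11 tested genes were called and the median was 0.00, and 1 gene came close. Sypl2, a synaptophysin relative known from the triads of skeletal muscle, was at 0.0650 and 0.0494 FPKM in BCP replicates 1 and 2, listed at 0 in BCP replicate 3, and at 1.53, 1.25 and 1.12 FPKM in sBCP. Its difference was -1.15 on the log2(FPKM + 1) scale with a standard error of 0.1499 (limma adjusted p = 0.0568). The authors' deposited table marks Sypl2 as significant, with a p-value of 3.9e-13. It passed the filter only through the sBCP group. Skeletal muscle markers moved the same way. Of the 15 listed muscle genes 12 were found under those names, and all 12 were tested. Of these, 11 passed the limma threshold as lower in BCP, where 0.168% of all tested features did. The median log2 difference of the 12 was -4.22. Summed without Pvalb, the other 11 came to 20.6 to 28.95 FPKM in BCP and 591 to 1045 in sBCP. The gene that did not pass, Pvalb, is also a marker of proprioceptive neurons. Of the muscle markers, Mb was listed at 0 in BCP replicates 2 and 3, so it could not have passed the filter without sBCP libraries. Which other muscle markers passed only through sBCP was not counted, so the count of 11 is a description and no support for the value of Sypl2. The part of muscle RNA in the value of Sypl2 was not tested. For Vamp5 and Stx4, release genes that muscle also makes, the differences were -0.02 (interval from -0.35 to 0.31) and 0.05 (from -0.20 to 0.30). The next gene by p in this list was Sypl1, at 11.3 ± 1.34 against 14.0 ± 2.72 FPKM.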

How the data were processed

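The deposited table holds, per the file headers, FPKM of each Ensembl rat gene in 3 BCP and 3 sBCP libraries. It also holds a p-value and q-value by the authors, and which test they ran is not given in the sources used here. RNA of RIN above 7, in amounts of 5 µg, was selected, per the labels' protocols, on poly-T beads and sequenced in pairs with an insert of about 300 bp. The aligner, counter, annotation release, build and use of strand are not given in the sources used here. Absolute depth is unknown, so no interval from counts is given, and summed FPKM lay between 479167 and 495494 per library.

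From these values, log2(FPKM + 1) of the features that reached 1 FPKM in 3 or more of 6 libraries was fitted over all of them with limma 3.58.1 in R 4.3.3 (variance trend, no covariate, two-sided, Benjamini-Hochberg at 0.05). The script was tested on simulated data. On this scale the change of genes with low values is understated. Lists were described by counts and medians. Values are named in every library for the 3 markers, the 16 highest members, members with an unadjusted p under 0.05 or groups without overlap, and members of the paralog ratios, and for the 2 genes with the smallest p of each pathway list. Rab3c was added after its values were seen. A planned ratio of Snap25 to Snap23 was not computed. Values of 2 members, with 1 planned ratio, are not reported here, and both stay in the fit and in the counts over members. Members and lists were chosen with earlier results of these data known. Promoters were matched by symbol for 52 of 65 members, with the most upstream start site where there were several. Plots were made in matplotlib 3.10.9. The alternatives varied the pseudocount, the filter, the scaling, the variance model and the weights, added a replicate block, or dropped 1 library. In the block, BCP replicate 2 and sBCP replicate 4 have no counterpart, so the difference rests on replicates 1 and 3.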

Additional observations from a re-analysis of the deposited data

How the results depend on the processing

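No member was called in either direction (0 genes) in any of the 17 alternatives to the limma fit. The median half-width of a member's 95% interval was 0.26 on the log2 scale, so smaller single differences lie within the error, and read depth is unknown. Over all tested features, calls higher in BCP (2 as reported) came to 1 without a filter, 4 with array weights, 10 with the replicate block and 1 with scaling to the pan-neuronal sum, and calls lower (23 as reported) to 35 with array weights. Leaving out a library gave 0 to 7 higher (0 without BCP replicate 1, 7 without sBCP replicate 4, 1 without BCP replicate 3 or sBCP replicate 3) and 13 to 24 lower (13 without BCP replicate 3, 14 without sBCP replicate 3). Members at an unadjusted p under 0.05 (1 as reported, Syt9) numbered 0 with median-ratio rescaling, quantile normalization, no variance trend, the block or the pan-neuronal scaling, and 2 (Cplx2 and Syt9) with array weights. Without 1 library they numbered 0 to 2, with 2 only without BCP replicate 3 and 0 without each other library. Over all 13710 tested features, those under 0.05 rose as well, from 271 as reported to 1262 with array weights and 413 without BCP replicate 3. The members' median difference was -0.0400 with array weights, -0.0478 with pan-neuronal scaling and -0.0227 to 0.0218 without a library. Members above and below 0 (31 and 25) were 22 and 34 with array weights, 24 and 32 without BCP replicate 3, and 23 and 33 without sBCP replicate 4. Array weights did not converge.

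Signs of differences that were not called turned for some members. Quantile normalization gave -0.0386 for Snap25 and -0.0404 for Syt11, array weights -0.107 and -0.00567, and pan-neuronal scaling -0.0484 and -0.0474, with -0.0107 for Syn1, -0.0399 for Syn2 and -0.00493 for Stx1a. Leaving out a library gave -0.0674 to 0.0610 for Vamp1, -0.0222 to 0.153 for Rab3a, -0.0383 to 0.0773 for Snap25, -0.0469 to 0.0519 for Syt11, -0.134 to 0.196 for Syn1, -0.0269 to 0.139 for Slc17a7, -0.0474 to 0.0869 for Syn2, -0.353 to 0.0199 for Sv2c, -0.170 to 0.0403 for Syt1, -0.128 to 0.0292 for Stx12, -0.00326 to 0.177 for Sv2a, -0.0372 to 0.164 for Stx1a and -0.143 to 0.0963 for Slc17a6. No ratio could pass its test, and without 1 library the sign of the log2 difference turned for 5 of 6, with -0.0134 to 0.134 for Vamp2 to Vamp1, -0.0619 to 0.201 for Syt1 to Syt2, -0.246 to 0.0707 for Rab3a to Rab3b, -0.00588 to 0.542 for Sv2a to Sv2c and -0.295 to 0.0954 for Slc17a6 to Slc17a7. The cause was not tested. The groups share the replicate numbers 1 and 3, which nothing in the labels ties to a shared animal or day. Deviations of same-numbered libraries correlated at 0.0643 (replicate 1) and -0.104 (replicate 3) over all tested features. Over the members they correlated at -0.395 and -0.172. The replicate block draws its difference from replicates 1 and 3 alone, because BCP replicate 2 and sBCP replicate 4 have no counterpart. It thus uses fewer libraries than the main fit. With it, 0 members were called, and the differences were 0.0743 for Vamp1, 0.0265 for Syt2 and 0.0446 for Syt1.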
